A study of Mus musculus with 8 samples.

Results

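Collagens are the main structural proteins of the extracellular matrix, and the collagen genes encode the alpha chains from which they are built. Chains pair in fixed combinations and wind into a triple helix. Fibrillar collagens then assemble into the fibres that give a tissue its tensile strength, type IV collagen forms the sheet-like network of basement membranes under epithelia and around vessels, and other types link, coat or anchor these structures. In a mammary tumour the fibrillar chains are made mostly by stromal fibroblasts, whereas epithelial and endothelial cells contribute to the basement membrane.

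The collagen genes were taken as every probe whose symbol, in the file or through its accession, consisted of Col, a number, the letter a and a number. This gave 40 of 18211 named genes, on 60 of the 24341 probes of the array, and 4 of the genes (Col20a1, Col26a1, Col6a4 and Col6a6) were found through the accession alone. Another 2 probes matched by their letters as Col4a3bp, whose current symbol is Cert1, a ceramide transporter and no collagen, and they were set aside. Of the 40 genes, 10 were fibrillar, 8 belonged to the basement membrane (the type IV chains with the multiplexins Col15a1 and Col18a1) and 22 were of other types. Where a gene had several probes, the one brightest on average over the 8 arrays stood for it.

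The samples were 8 spontaneous mammary tumours of mice of the strain FVB/N-TgN (MMTVneu)-202Mul. These animals carry the neu oncogene under the mammary tumour virus promoter, which is active mainly in mammary epithelium, and both groups share the transgene. Imiquimod, an agonist of the innate immune receptor TLR7, was given as a topical cream for 1 cycle to the mice of 4 tumours, and the mice of the other 4 received control cream. The comparison asks how treatment changed gene expression in the tumours. The sources used here give no ages and do not state that each tumour had its own mouse, so the p-values refer to variation among these 8 samples, part of which could be technical. RNA came from whole tumours, in which fewer cells of a type and less RNA per cell cannot be told apart.

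Values are deposited log2 signals, on which 1 unit is a 2-fold difference. Differences are imiquimod minus control and were tested with limma over 13142 genes and unnamed probes that passed a filter on dim probes at a mean log2 signal of 6.64. The threshold was a Benjamini-Hochberg adjusted p below 0.05 over all of them, and 4.33% of them passed it, 2.13% higher and 2.2% lower with imiquimod. The luminal keratin Krt8 had log2 signals of 11.07 to 11.49 in imiquimod tumours and 11.19 to 11.29 in control tumours. Krt18, another luminal keratin, had 11.53 to 11.74 in imiquimod tumours and 11.77 to 11.97 in controls. It was thus lower without overlap, as were 7.11% of all features. Krt19, below the filter on its mean, had 8.19 in imiquimod 2 and 6.10 to 6.47 in the other 7 tumours. Skeletal muscle genes set imiquimod 3 and 4 apart, with mean log2 differences from the control mean of 1.74 and 1.39, against -0.17 to -0.15 in imiquimod 1 and 2 and -0.25 to 0.46 in controls. The epidermal genes Krt10 and Lor set imiquimod 1 apart, Lor having a log2 signal of 9.28 there and 6.41 to 6.81 in the other 7 tumours. Lor passed the filter through imiquimod 1. Of the same list, Dsg1a was below every control there, and Krt1, Ivl, Krt15 and Dsc1 were below the filter. Imiquimod 1, 3 and 4 were kept, and collagen results that changed without them are given with both values.

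No collagen gene passed the threshold with all 8 tumours. Of the 40 genes, 30 passed the filter and were tested, and 0 were called in either direction. At an unadjusted p below 0.05, 5 were higher (9.21% of all features) and 2 lower (11.3% of all features), and 19 of the 30 had a difference above 0 (44.2% of all features). The median log2 difference was 0.03 over the 30 genes tested and 0.01 over all 40, against -0.02 over all features. A log2 difference of at least 0.5 was measured in 7 of the 30 on the higher side (5.07% of all features) and in 1 on the lower side (3.87% of all features). The chains on the higher side were Col1a1, Col5a1, Col3a1, Col6a1, Col6a2, Col6a3 and Col16a1, and 6 of these 7 belong to collagens I, III, V and VI, the fibres and fine filaments of the stroma.

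Those 6 chains shared one arrangement of the tumours. Imiquimod 2, 3 and 4 lay above every control tumour, imiquimod 3 was the highest of all 8, and imiquimod 1 lay within or below the control range, except for Col3a1, where it lay 0.05 above the highest control. At least 3 imiquimod tumours above every control were found in 8 of the 30 genes, the other two being Col1a2 and Col16a1, against 13.2% of all features. Of these, Col3a1 and Col1a2 had control means below the filter limit and were tested through the imiquimod tumours, so their direction carries no support. The groups did not overlap in 1 of the 30 (Col3a1), imiquimod being higher, against 5.52% of all features, and imiquimod was lower without overlap in 0 of the 30, against 7.11% of all features (12.6% in either direction). With imiquimod 1 left out, 5 of the 30 passed the threshold and were higher, namely Col1a1, Col3a1, Col5a1, Col6a1 and Col6a2, where 3.45% of all features were higher, and 0 were lower, where 3.48% were. No collagen gene passed in the other 17 alternatives, including imiquimod 3 and 4 left out together, where 0.54% of all features were higher and 0.312% lower.

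**Figure D1:**
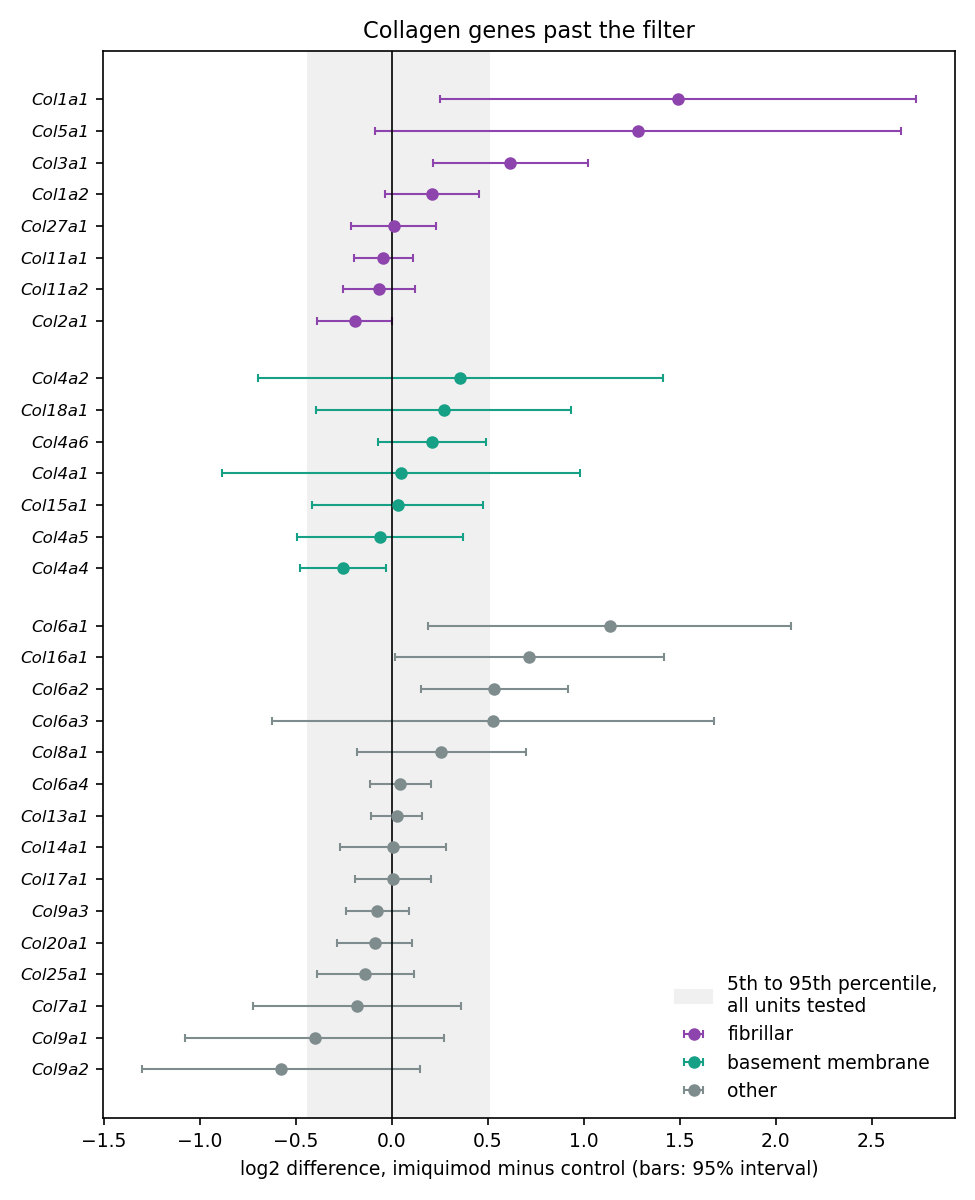
Log2 difference, imiquimod minus control, on the horizontal axis for each of the 30 collagen genes that passed the filter, with its 95% interval, in colour by class; the grey band runs from the 5th to the 95th percentile of all features tested (-0.44 to 0.51). Col1a1, Col5a1 and Col6a1 stand farthest to the right with wide intervals, and most other chains lie within the band.

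Fibrillar collagens were led by Col1a1, which encodes the main chain of type I collagen. Col1a1 had log2 signals of 6.82, 9.17, 9.76 and 8.41 in imiquimod 1 to 4, against 6.90, 7.56, 7.01 and 6.72 in control 1 to 4. Imiquimod 2, 3 and 4 were above every control, while imiquimod 1 lay within the control range. The means were 8.54 ± 1.27 with imiquimod and 7.05 ± 0.36 in controls (SD, n = 4 each), a log2 difference of 1.49 (SE 0.55, 95% interval 0.25 to 2.73, limma adjusted p = 0.161), or 2.81-fold. It was 2.07 without imiquimod 1 (adjusted p = 0.0117), 1.08 without imiquimod 3 (0.321) and 0.95 without imiquimod 3 and 4 (0.594).

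Col5a1, a chain of the type V collagen that starts fibrils and sets their diameter, ran with Col1a1. Its log2 signals were 6.85, 8.78, 10.17 and 8.43 in imiquimod 1 to 4, against 6.84, 8.04, 7.26 and 6.96 in control 1 to 4. The highest value again belonged to imiquimod 3, and control 2 was the highest control for both chains. The log2 difference was 1.28 (SE 0.60, 95% interval -0.09 to 2.65, adjusted p = 0.275), 1.85 without imiquimod 1 (adjusted p = 0.0452), 0.74 without imiquimod 3 (0.498) and 0.54 without imiquimod 3 and 4 (0.781).

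Col3a1 encodes type III collagen, which forms thin fibrils together with type I in soft tissue and in granulation tissue. It was the single tested collagen gene whose groups did not overlap, with log2 signals of 6.67, 7.28, 7.65 and 7.09 in imiquimod 1 to 4, against 6.62, 6.49, 6.53 and 6.59 in control 1 to 4. The 4 control values lay below the filter limit, and the gene passed the filter on its mean through the imiquimod tumours. The means were 7.17 ± 0.41 with imiquimod and 6.56 ± 0.06 in controls (SD, n = 4 each), a log2 difference of 0.62 (SE 0.18, 95% interval 0.21 to 1.02). It had the smallest p of the collagen genes and missed the threshold (adjusted p = 0.0902), with 0.79 without imiquimod 1 (adjusted p = 0.0149), 0.46 without imiquimod 3 (0.154) and 0.42 without imiquimod 3 and 4 (0.386). A dimmer Col3a1 probe below the filter had 0.09.

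Other fibrillar chains had small values on dim probes. Col1a2, the partner chain of Col1a1, had log2 signals of 6.60, 6.82, 7.002 and 6.81 in imiquimod 1 to 4, against 6.43, 6.60, 6.55 and 6.81 in control 1 to 4. The order of the 3 highest tumours (imiquimod 3, 2 and 4) was that of Col1a1, but the difference was 0.21 (SE 0.11, adjusted p = 0.322). Its control mean of 6.598 lay below the filter limit, so that Col1a2, like Col3a1, was tested through the imiquimod tumours. Col5a2, the partner of Col5a1, lay below the filter and was not tested, with 6.337, 6.280, 6.546 and 6.499 in imiquimod 1 to 4, against 6.603, 6.581, 6.550 and 6.562 in control 1 to 4. The 4 imiquimod tumours were below every control, but imiquimod 3 had 6.546 and control 3 had 6.550, and the log2 difference was -0.16. Among features that passed the filter, 7.11% were lower without overlap. Every Col5a2 value lay below the filter limit, so its direction carries no support.

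The cartilage chains Col2a1, Col11a1 and Col11a2 and the fibrillar Col27a1 had log2 differences of -0.19, -0.04, -0.07 and 0.01, with mean log2 signals of 6.71 to 6.83, near the filter limit. Col5a3 was below the filter.

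**Figure D2:**
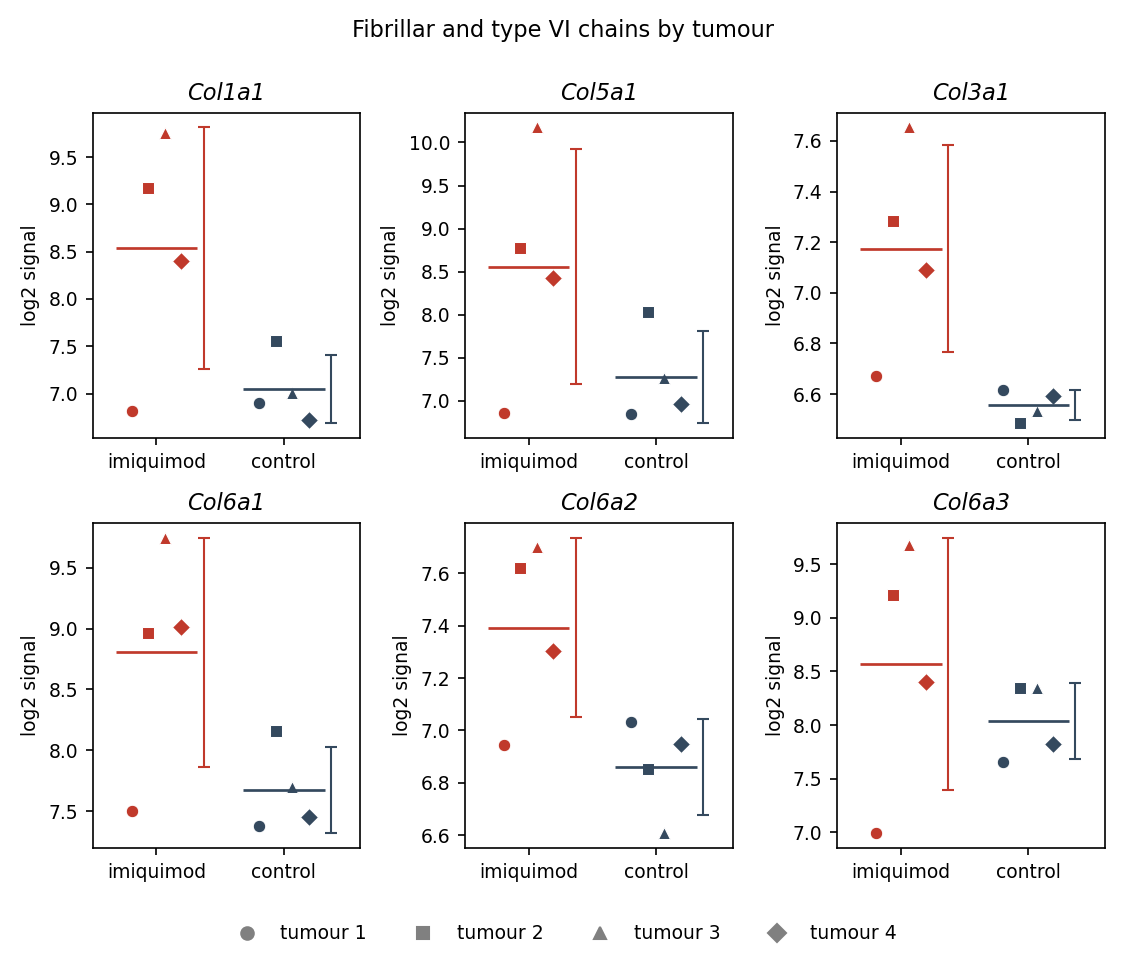
Log2 signal of 6 chains of collagens I, V, III and VI in each of the 8 tumours, imiquimod left and control right; marker shapes give the tumour number within its group, horizontal lines the means and bars 1 SD (n = 4). In every panel imiquimod 3 is highest and imiquimod 1 lies at or near the control tumours; vertical scales differ and do not start at 0.

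Type VI collagen forms beaded filaments around cells, at the border of stroma and basement membrane, from the products of Col6a1, Col6a2 and Col6a3. Col6a1 had log2 signals of 7.502, 8.96, 9.75 and 9.01 in imiquimod 1 to 4, against 7.37, 8.16, 7.70 and 7.45 in control 1 to 4. Imiquimod 2, 3 and 4 were above every control and imiquimod 1 lay among the controls. The log2 difference was 1.13 (SE 0.42, 95% interval 0.19 to 2.08, adjusted p = 0.162), or 2.19-fold, with 1.57 without imiquimod 1 (adjusted p = 0.0126), 0.82 without imiquimod 3 (0.321) and 0.56 without imiquimod 3 and 4 (0.661). A second Col6a1 probe gave 1.12, and another, with a mean of 6.66 near the filter limit, gave -0.04.

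Col6a2 had log2 signals of 6.95, 7.62, 7.70 and 7.30 in imiquimod 1 to 4, against 7.03, 6.85, 6.61 and 6.95 in control 1 to 4. Its difference was 0.53 (SE 0.17, 95% interval 0.15 to 0.92, adjusted p = 0.115), with 0.68 without imiquimod 1 (adjusted p = 0.0258), 0.43 without imiquimod 3 (0.25) and 0.42 without imiquimod 3 and 4 (0.475). Col6a1 and Col6a2 are next to each other on chromosome 10 with no other protein-coding gene of the reference table between them.

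Col6a3 had the lowest imiquimod 1 value of the 6 chains relative to controls. Its log2 signals were 6.99, 9.22, 9.68 and 8.40 in imiquimod 1 to 4, against 7.65, 8.34, 8.34 and 7.83 in control 1 to 4. Imiquimod 1 was thus the lowest of the 8 tumours and imiquimod 3 the highest, and the difference of 0.53 had an SE of 0.51 (95% interval -0.62 to 1.68, adjusted p = 0.611). It was 1.05 without imiquimod 1 (adjusted p = 0.0812), 0.31 without imiquimod 2, 0.16 without imiquimod 3 (0.91) and 0.06 without imiquimod 3 and 4. The other Col6a3 probes gave 0.00 and 0.15. Of the remaining type VI chains, Col6a4 had a log2 difference of 0.04 and Col6a6 was below the filter.

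The spread among imiquimod tumours was wide for some chains. In 13 of the 30 genes tested the SD of the imiquimod tumours was at least 2 times that of the controls, against 15.2% of all features. Among them were Col1a1, Col5a1, Col6a1, Col6a3, Col18a1 and Col8a1, the last with a control SD of 0.04. Col3a1 was another, but its control values lay below the filter limit with an SD of 0.06, so its ratio carries no support. Also among the 13 were Col27a1, Col11a1, Col9a3, Col14a1, Col25a1 and Col6a4, on dim probes with means of 6.751 to 6.965. The SDs of these dim chains were small in both groups, 0.095 to 0.244 with imiquimod and 0.033 to 0.104 in controls. The median SD of the collagen genes tested was 0.24 among imiquimod tumours and 0.17 among controls, against 0.12 and 0.13 over all features. Imiquimod 3 was the highest of the 8 tumours in 11 of the 30 genes, Col3a1 and Col1a2 among them, and imiquimod 1 the lowest in 7. These extremes were not counted over all features, so the counts cannot be read as particular to collagen genes.

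Among basement membrane collagens, Col4a1 and Col4a2 showed another arrangement, which Col4a4, Col4a5 and Col4a6 did not share. The type IV chains Col4a1 and Col4a2, which join into one molecule, are transcribed in opposite directions from neighbouring starts on mouse chromosome 8. Their promoter windows, each running from 250 bases before to 50 after the start of the gene, overlap by 78 bases and are shown because the chains that start there had nearly the same order of tumours. The capitals mark the shared 78 bases, read from opposite strands (RefSeq, build GRCm38.p6; Col4a1 chr8:11312777-11313076, minus strand; Col4a2 chr8:11312555-11312854, plus strand).
Col4a1: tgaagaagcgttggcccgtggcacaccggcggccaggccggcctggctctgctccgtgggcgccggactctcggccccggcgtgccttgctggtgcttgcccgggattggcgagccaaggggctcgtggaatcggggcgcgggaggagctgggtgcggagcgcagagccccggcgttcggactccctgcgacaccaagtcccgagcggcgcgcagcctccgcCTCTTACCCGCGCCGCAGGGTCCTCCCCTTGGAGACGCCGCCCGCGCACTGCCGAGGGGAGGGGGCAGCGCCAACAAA
Col4a2: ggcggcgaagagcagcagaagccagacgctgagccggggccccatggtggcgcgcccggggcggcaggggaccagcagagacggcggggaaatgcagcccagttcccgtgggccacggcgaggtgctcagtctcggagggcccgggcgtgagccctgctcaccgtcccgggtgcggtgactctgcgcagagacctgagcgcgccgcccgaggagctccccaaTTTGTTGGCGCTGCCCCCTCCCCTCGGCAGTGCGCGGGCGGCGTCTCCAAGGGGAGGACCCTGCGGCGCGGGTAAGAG
Searched on both strands, the GC box GGGCGG was found 1 time in the Col4a1 window and 3 times in the Col4a2 window, 1 of them in the shared stretch, and 35.7% of all 32851 promoter windows hold it. The CCAAT box was found 1 time in each window and in 37.4% of all windows. The TATA box, searched as TATAAA, was in neither window and in 13.6% of all windows.

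Col4a2 had log2 signals of 10.43, 10.72, 11.91 and 11.89 in imiquimod 1 to 4, against 10.23, 11.88, 11.21 and 10.20 in control 1 to 4. Col4a1 had 8.82, 9.03, 10.03 and 10.10 in imiquimod 1 to 4, against 8.96, 10.35, 9.74 and 8.74 in control 1 to 4. For both chains imiquimod 3, imiquimod 4 and control 2 were the 3 highest tumours, control 3 came next and control 4 was the lowest. High and low tumours were thus found in both groups. The log2 difference was 0.36 for Col4a2 (SE 0.47, 95% interval -0.70 to 1.41, adjusted p = 0.723). It was 0.05 for Col4a1 (SE 0.41, 95% interval -0.89 to 0.98, adjusted p = 0.965), so that differences of nearly 2-fold either way lay within the interval. Without imiquimod 3 and 4 together the differences were -0.31 and -0.52.

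The multiplexins sit in the basement membrane zone of vessels and epithelia, and the C-terminal fragment of Col18a1 is the angiogenesis inhibitor endostatin. Col18a1 had log2 signals of 7.92, 8.16, 9.20 and 9.01 in imiquimod 1 to 4, against 7.92, 8.62, 8.47 and 8.18 in control 1 to 4. Imiquimod 3 and 4 were above every control, and the difference of 0.27 (SE 0.29, adjusted p = 0.659) turned to -0.26 without them. Col15a1 had 6.80, 6.98, 7.69 and 7.28 in imiquimod 1 to 4, against 7.21, 7.43, 7.15 and 6.84 in control 1 to 4, with a difference of 0.03 (SE 0.20, adjusted p = 0.955). On average, the endothelial marker genes were likewise higher in imiquimod 3 and 4 than in imiquimod 1 and 2. Their mean log2 differences were -0.01, 0.04, 0.57 and 0.65 in imiquimod 1 to 4 and between -0.28 and 0.21 in controls, and 0 of 9 tested passed. Kdr and Vwf did not share this. Kdr had 6.78 in imiquimod 1 against 6.58 and 6.66 in imiquimod 3 and 4, and Vwf had 7.51 in imiquimod 2 against 7.24 in imiquimod 4. Among controls the order differed, since control 2 was highest for both multiplexins but had an endothelial mean of 0.06, against 0.21 in control 3. The part of the endothelial genes in the result was not tested.

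Col4a5 and Col4a6, which pair in the basement membranes of other epithelia and of smooth muscle, had log2 differences of -0.06 (SE 0.19) and 0.21 (SE 0.12). Col4a4, a chain of kidney basement membrane, had -0.25 (SE 0.10, adjusted p = 0.186), with 3 imiquimod tumours below every control on a probe with a mean of 6.90. Its partner Col4a3 was below the filter.

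**Figure D3:**
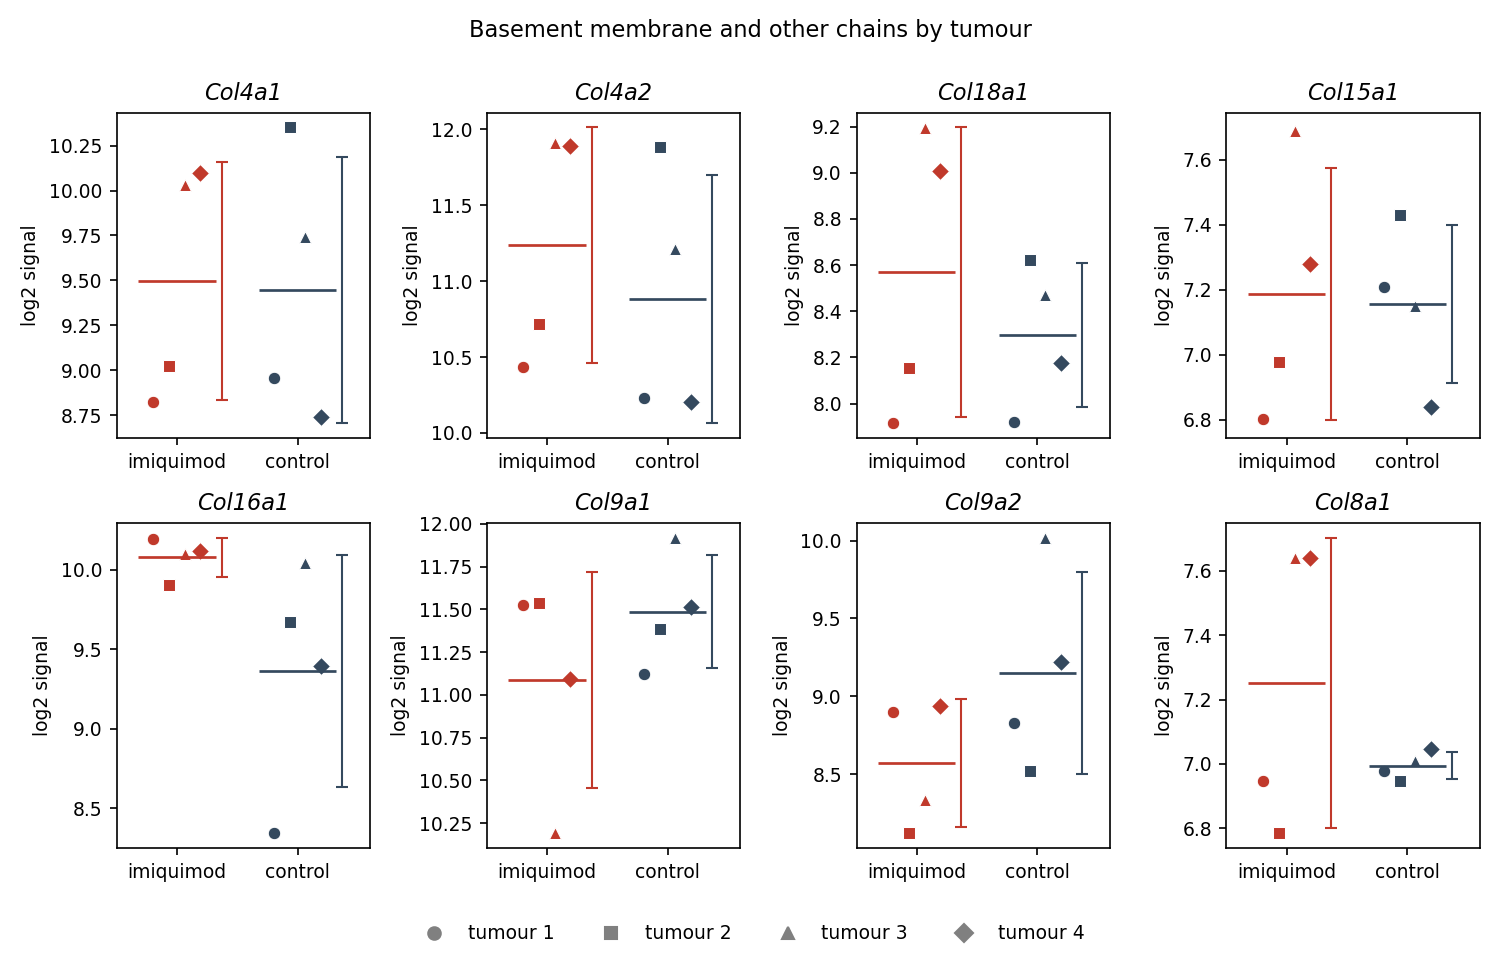
Log2 signal of 4 basement membrane chains (upper row) and 4 chains of other types (lower row) in each tumour, imiquimod left and control right; shapes give the tumour number within its group, lines the means and bars 1 SD (n = 4). Col4a1 and Col4a2 repeat nearly the same order of tumours, and Col16a1 is tight among imiquimod tumours and spread among controls; vertical scales differ and do not start at 0.

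Among the other types, Col16a1 had an arrangement of its own. This fibril-associated collagen links fibrils to cells and to the surrounding matrix. Its log2 signals were 10.19, 9.90, 10.10 and 10.12 in imiquimod 1 to 4, against 8.34, 9.67, 10.04 and 9.39 in control 1 to 4. The imiquimod tumours, imiquimod 1 included, lay close together, whereas the controls were spread, with control 1 the lowest, and the groups overlapped. The difference of 0.72 (SE 0.31, 95% interval 0.02 to 1.42, adjusted p = 0.232) was 0.38 without control 1.

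The chains of type IX collagen, which coats type II fibrils in cartilage, were on the lower side. Col9a1 had log2 signals of 11.52, 11.54, 10.19 and 11.09 in imiquimod 1 to 4, against 11.12, 11.39, 11.92 and 11.52 in control 1 to 4, far above the filter limit in every tumour. Its difference was -0.40 (SE 0.30, 95% interval -1.08 to 0.27, adjusted p = 0.501), with -0.10 without imiquimod 3 and 0.04 without imiquimod 3 and 4. Col9a2 had 8.90, 8.12, 8.33 and 8.94 in imiquimod 1 to 4, against 8.83, 8.52, 10.02 and 9.22 in control 1 to 4. The groups overlapped for both chains, control 3 was the highest tumour for both, and the Col9a2 difference was -0.58 (SE 0.32, 95% interval -1.30 to 0.15, adjusted p = 0.357). Without control 3 it was -0.28. The partner Col9a3 had -0.08 on a probe with a mean of 6.97.

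Cartilage genes were read beside these chains. Of 8 on the list 7 passed the filter and 0 passed the test, with a median log2 difference of 0.01. A pair of secreted matrix proteins of this list, chosen after their values were seen, had lower values with imiquimod and groups that did not overlap, as had 7.11% of all features. Comp, which binds collagen fibrils, had 11.04, 8.52, 8.56 and 11.14 in imiquimod 1 to 4, against 11.20, 12.17, 11.83 and 11.49 in control 1 to 4 (difference -1.86, SE 0.63, adjusted p = 0.133). Chad, which binds collagen and cells, had 9.13, 7.53, 7.70 and 8.91 in imiquimod 1 to 4, against 10.28, 9.20, 10.24 and 9.81 in control 1 to 4 (difference -1.57, SE 0.40, adjusted p = 0.0626). Of the genes that define cartilage, aggrecan (Acan) had 7.09 to 7.30 in imiquimod tumours and 7.14 to 7.23 in controls, and Col2a1 had 6.60 to 6.89 in imiquimod tumours and 6.80 to 7.001 in controls. The mean difference of the list was -0.76 in imiquimod 2 and -0.64 in imiquimod 3, and between -0.23 and 0.18 in the other 6 tumours. Comp and Chad carry these means, since the log2 differences of Acan, Sox9, Matn3, Matn1 and Cnmd were 0.01, 0.08, 0.10, -0.01 and 0.09.

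Col8a1, a short-chain network collagen of vessel walls, had log2 signals of 6.95, 6.78, 7.64 and 7.64 in imiquimod 1 to 4, against 6.98, 6.95, 7.01 and 7.04 in control 1 to 4. Imiquimod 3 and 4 stood apart from the other 6 tumours, and the difference of 0.26 (SE 0.19, adjusted p = 0.509) was -0.13 without them. The 15 tested genes not given tumour by tumour, among them the anchoring-fibril chain Col7a1 and the hemidesmosome collagen Col17a1, had log2 differences from -0.25 to 0.21 and adjusted p from 0.186 to 0.981. The 10 genes below the filter had mean log2 signals of 6.29 to 6.58 and log2 differences from -0.19 to 0.02. Among these were the fibril-associated Col12a1, the growth-plate collagen Col10a1 and Col8a2.

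Taken by class, with every gene of a class counted whether or not it passed the filter, the fibrillar chains averaged -0.10, 0.36, 0.68 and 0.30 from the control mean in imiquimod 1 to 4, against -0.08, 0.10, 0.00 and -0.02 in control 1 to 4. Imiquimod 2, 3 and 4 were above every control and imiquimod 1 was close to the lowest control. The basement membrane chains averaged -0.20, -0.16, 0.32 and 0.27 in imiquimod 1 to 4, against -0.35, 0.41, 0.15 and -0.21 in control 1 to 4, so that the groups interleaved. The other types averaged -0.11, 0.10, 0.19 and 0.09 in imiquimod 1 to 4, against -0.09, 0.03, 0.09 and -0.04 in control 1 to 4. The mean difference between groups was 0.31 for fibrillar, 0.06 for basement membrane and 0.07 for other chains, and these means are descriptions with no test. They rest on a few chains, since the median log2 difference was 0.00 for the 10 fibrillar, 0.04 for the 8 basement membrane and -0.01 for the 22 other genes.

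**Figure D4:**
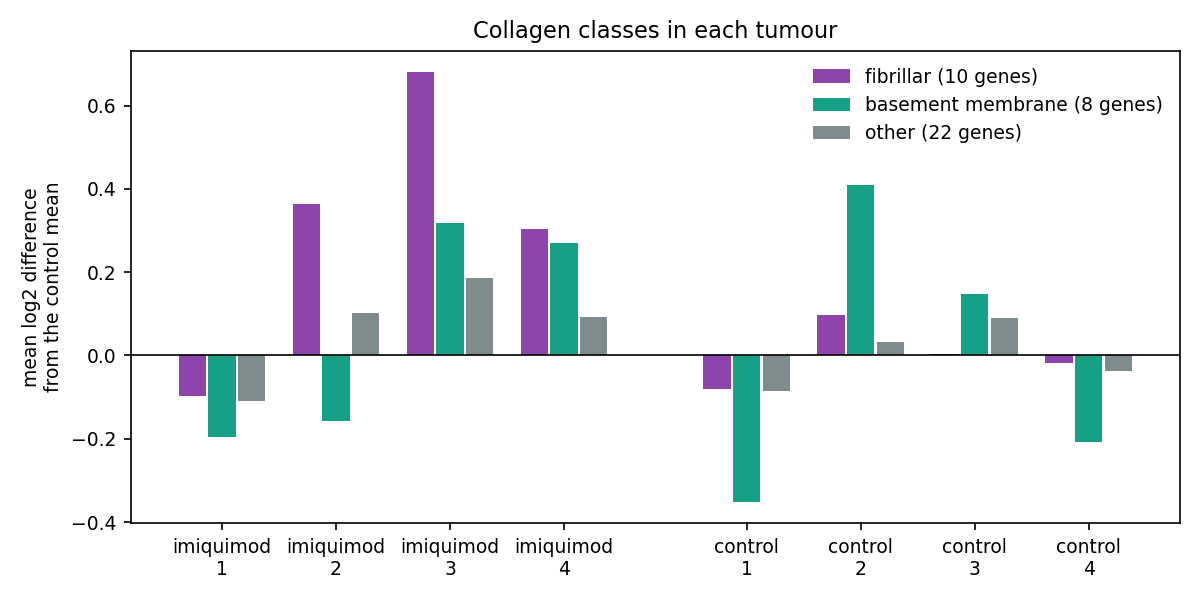
Mean log2 difference from the control mean (vertical axis) over the genes of each collagen class, for each tumour, imiquimod left and control right. Fibrillar bars reach 0.36, 0.68 and 0.30 in imiquimod 2, 3 and 4 and stay within 0.10 of 0 in the other tumours, while basement membrane bars point up and down in both groups.

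Promoter windows were found for 32 of the 40 genes; Col1a1 was not among them. Those of Col5a1 (chr2:27886175-27886474, plus strand) and Col3a1 (chr1:45311288-45311587, plus strand) are shown because both chains had the arrangement of tumours described for Col1a1, with the capitals marking any match to the CCAAT box, to the TATA box TATAAA or to the GC box GGGCGG on either strand (RefSeq, build GRCm38.p6).
Col5a1: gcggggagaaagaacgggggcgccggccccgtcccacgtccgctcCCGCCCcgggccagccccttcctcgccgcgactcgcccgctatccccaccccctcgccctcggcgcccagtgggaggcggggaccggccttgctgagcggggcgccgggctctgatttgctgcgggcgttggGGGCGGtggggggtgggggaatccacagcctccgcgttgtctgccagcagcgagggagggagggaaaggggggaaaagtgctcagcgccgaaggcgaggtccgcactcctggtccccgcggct
Col3a1: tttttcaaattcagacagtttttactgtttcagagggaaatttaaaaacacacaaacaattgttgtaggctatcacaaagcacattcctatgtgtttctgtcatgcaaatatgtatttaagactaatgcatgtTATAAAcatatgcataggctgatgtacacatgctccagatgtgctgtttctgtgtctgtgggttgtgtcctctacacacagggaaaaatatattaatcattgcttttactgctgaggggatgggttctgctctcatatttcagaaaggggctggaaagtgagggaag
The Col5a1 window held GGGCGG 2 times and the Col3a1 window TATAAA 1 time, so these windows had no match in common. Over the 35 windows of the collagen genes, some genes having several starts, 22 held GGGCGG, 13 CCAAT and 5 TATAAA. A match is a run of letters and was not tested as a binding site.

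Collagen needs a set of enzymes and chaperones for hydroxylation, folding, trimming and crosslinking. Of 37 such genes listed, 32 were tested and 0 passed in either direction, with a median log2 difference of 0.07 (-0.02 over all features). Without imiquimod 1, 3 were higher, where 3.45% of all features were, and 0 passed without imiquimod 3 and 4. The crosslinking enzyme Lox, which joins collagen and elastin fibres, had log2 signals of 6.85, 9.12, 10.97 and 8.70 in imiquimod 1 to 4, against 7.02, 8.11, 6.92 and 7.23 in control 1 to 4. Imiquimod 2, 3 and 4 were above every control and imiquimod 1 was below every control. The difference was 1.59 (SE 0.73, adjusted p = 0.262), with 2.28 without imiquimod 1 (adjusted p = 0.0435), 0.91 without imiquimod 3 (0.461) and 0.67 without imiquimod 3 and 4 (0.75).

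Its relative Loxl1 had 6.87, 8.71, 10.003 and 9.18 in imiquimod 1 to 4, against 7.09, 7.61, 6.84 and 7.29 in control 1 to 4, a difference of 1.48 (SE 0.56, adjusted p = 0.175; 2.09 without imiquimod 1, adjusted p = 0.00976; 0.58 without imiquimod 3 and 4, adjusted p = 0.707). Adamts2, the protease that removes the N-terminal propeptide of fibrillar procollagens, had 7.93, 8.49, 9.33 and 8.80 in imiquimod 1 to 4, against 7.19, 8.28, 7.60 and 7.33 in control 1 to 4. Its difference was 1.04 (SE 0.32, adjusted p = 0.102; 1.28 without imiquimod 1, adjusted p = 0.037; 0.62 without imiquimod 3 and 4, adjusted p = 0.5). Sec23a, a coat protein of the vesicles that carry procollagen out of the endoplasmic reticulum, had 6.84 to 6.88 in imiquimod tumours and 6.43 to 6.67 in controls, a difference of 0.26 (SE 0.07, adjusted p = 0.083). Its control mean of 6.61 lay below the filter limit, so it was tested through the imiquimod tumours and had to be higher in them.

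Receptors and uptake genes for collagen numbered 14, of which 9 were tested and 0 passed, with a median log2 difference of 0.10. Without imiquimod 1, 1 was higher (3.45% of all features) and 1 lower (3.48% of all features). Ctsk, the lysosomal protease that cleaves the collagen helix, had 6.95, 8.06, 8.74 and 8.46 in imiquimod 1 to 4, against 6.85, 7.29, 6.87 and 6.92 in control 1 to 4. Its difference was 1.07 (SE 0.34, adjusted p = 0.114), with 1.44 without imiquimod 1 (adjusted p = 0.00538) and 0.52 without imiquimod 3 and 4 (0.543). Ddr1, a collagen-binding receptor tyrosine kinase of epithelial cells, had 9.64, 9.10, 9.29 and 9.24 in imiquimod 1 to 4, against 9.64, 9.68, 9.50 and 9.62 in control 1 to 4. Its difference was -0.30 (SE 0.11, adjusted p = 0.183), with -0.40 without imiquimod 1 (adjusted p = 0.028) and -0.24 without imiquimod 3 and 4 (0.611). The fibroblast integrin subunit Itga11 had 0.50 (SE 0.23, adjusted p = 0.255) and the inhibitory leukocyte receptor Lair1 had 0.18 (SE 0.08, adjusted p = 0.255).

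As a mean, the fibroblast marker genes had imiquimod 2, 3 and 4 above every control, as had the mean of the fibrillar chains. Their mean log2 differences were 0.01, 0.78, 1.39 and 0.81 in imiquimod 1 to 4, against -0.12, 0.06, -0.13 and 0.20 in control 1 to 4. Among single markers, Pdgfrb, Thy1, Fbln2 and Gsn did not have imiquimod 2, 3 and 4 all above every control. Thy1 had 7.65 in imiquimod 2, against 7.81 in control 2. The median over the 12 of 15 tested was 0.49. Lum and Fbln1 had control means of 6.47 and 6.61, below the filter limit, and were tested through the imiquimod tumours, so their direction carries no support. Of the 12, 1 rose, against 2.13% of all features. This was the small proteoglycan Dcn, which binds type I collagen fibrils, with 8.44, 10.29, 10.54 and 10.37 in imiquimod 1 to 4, against 7.70, 7.92, 6.30 and 8.32 in control 1 to 4. Its log2 difference was 2.35 (SE 0.55, adjusted p = 0.0483), and 1.39 as the mean of all kept Dcn probes (adjusted p = 0.0448). It passed in 8 of 18 alternatives. Among single tumours left out, it passed without imiquimod 1, and leaving out any other gave adjusted p of 0.0679 to 0.122. With no filter the adjusted p was 0.0504, and 0.347 without imiquimod 3 and 4. The receptor Pdgfra had 7.33, 7.85, 8.42 and 7.61 in imiquimod 1 to 4, against 7.25, 7.07, 7.24 and 7.61 in control 1 to 4 (difference 0.51, adjusted p = 0.224). Pdgfrb had 7.19 to 7.56 in imiquimod tumours and 7.10 to 7.33 in controls.

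Other markers moved with the collagen values to varying degrees, and their part in the result was not tested. Adipocyte genes averaged 0.21, 1.00, 1.07 and -0.07 in imiquimod 1 to 4 and -0.29 to 0.30 in controls (0 of 9 called). Smooth muscle and pericyte genes averaged -0.17, 0.41, 0.39 and 0.22 in imiquimod 1 to 4 and -0.17 to 0.16 in controls (0 of 6 called). Skeletal muscle genes, described above, had 0 of 12 called. Some genes of these lists had control means below the filter limit and were tested through the imiquimod tumours, so their direction carries no support. They were Cidec and Lep among adipocyte genes, and Myh2, Myh7, Actn3 and Myl1 among skeletal muscle genes. Imiquimod 2, with high fibrillar chains, had a low skeletal muscle value of -0.17, whereas imiquimod 3 and 4 were high in both.

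Basal epithelial genes averaged 0.44, 0.82, 0.58 and 0.13 in imiquimod 1 to 4 and -0.18 to 0.09 in controls (1 of 4 higher, Krt14, adjusted p = 0.0361, past the threshold in 10 of 18 alternatives; 2.13% of all features were higher). Krt17 of that list had a control mean of 6.51, below the filter limit, and was tested through the imiquimod tumours, so its direction carries no support. Epidermal genes averaged 1.35 in imiquimod 1, -0.09 to 0.03 in imiquimod 2 to 4 and -0.06 to 0.16 in controls (0 of 3 called). Of the 3, Lor had a control mean of 6.625, below the filter limit, and passed the filter through imiquimod 1. Krt10 was high in imiquimod 1 too, but Dsg1a had 6.890 there, against 6.893 to 7.140 in controls. Luminal epithelial genes averaged -0.11 to 0.25 in imiquimod tumours and -0.09 to 0.16 in controls (1 of 10 higher, Muc1, against 2.13% of all features), and Schwann cell genes -0.17 to 0.02 and -0.19 to 0.12 (0 of 5 called). Macrophage genes averaged 0.50, 0.47, 1.28 and 0.99 in imiquimod 1 to 4 and -0.14 to 0.26 in controls (5 of 9 higher, against 2.13% of all features). Of the 5, Fcgr1 had a control mean of 6.55, below the filter limit. It was tested through the imiquimod tumours and had to be higher in them. In imiquimod 1 the macrophage mean was above that of every control, but Cd68 and Mrc1 of that list lay below every control there.

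**Figure D5:**
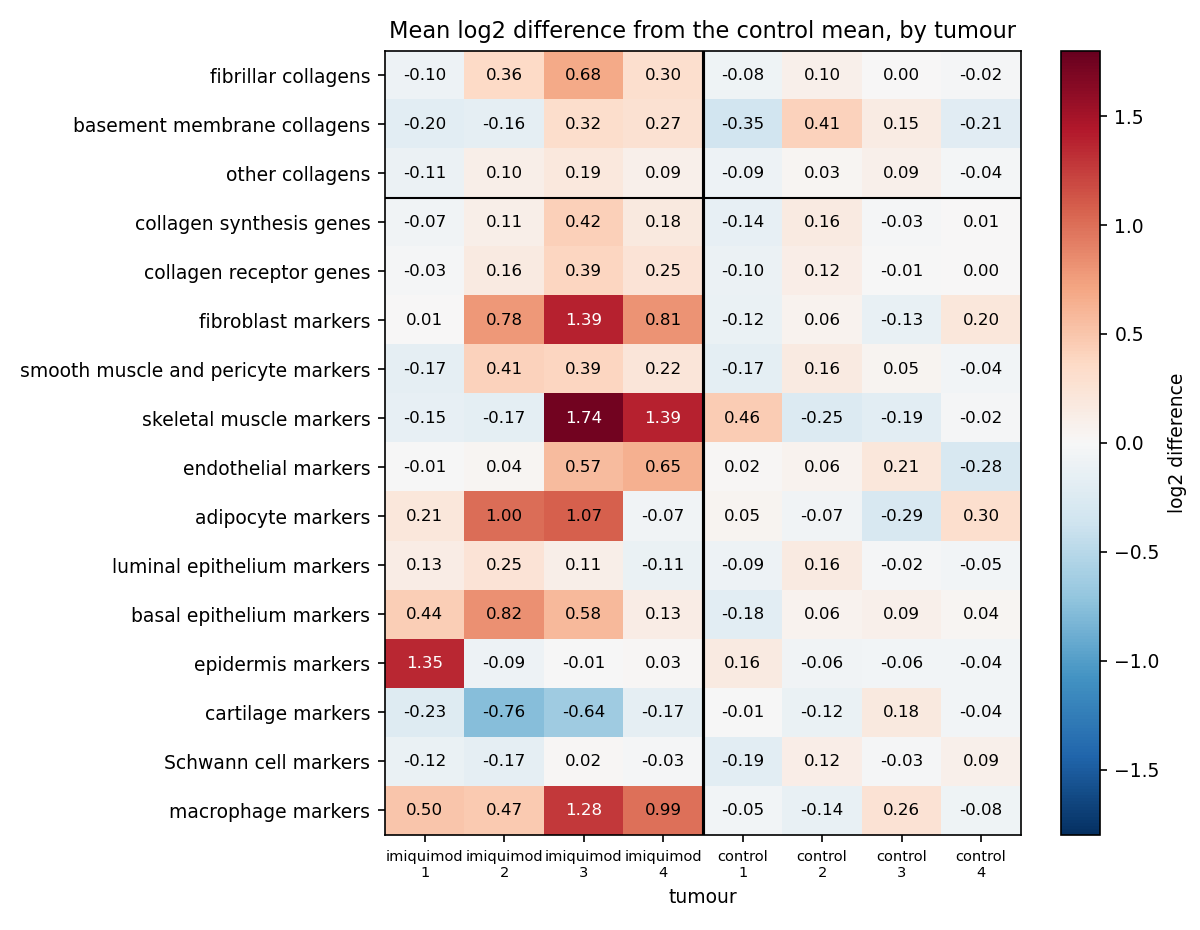
Mean log2 difference from the control mean (colour and printed number) for the collagen classes, the collagen synthesis and receptor genes and the marker lists (rows) in each tumour (columns), imiquimod left of the vertical line and control right. The rows of fibrillar collagens and fibroblast markers are high in imiquimod 2, 3 and 4 and near 0 in imiquimod 1, where epidermal genes reach 1.35; skeletal muscle genes reach 1.74 and 1.39 in imiquimod 3 and 4.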

How the data were processed

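Biotin-labelled cRNA from 8 tumours was hybridised to Illumina bead arrays, per the labels' protocols. The values the authors deposited are on a log2 scale, by the values themselves, and the 8 arrays have close medians (6.816 to 6.824). The highest value was 15.07 over the imiquimod arrays and 14.86 over the control arrays. Whether the groups were processed apart is not given in the sources used here, so that such a step and treatment cannot be told apart. Of tools, affy is named, without a version, per the submitters' processing notes. Background correction is not given in the sources used here, and without it fold changes of dim genes are understated. The table of scanner signals served for probe names alone, and its 16 columns of per-sample values, which match no sample label, were not used.

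Probes were named through accession (20034), current symbol (1623), synonym (1736) or file symbol (693) with a table of mouse RefSeq genes, and 255 had no name. Probes with a mean log2 signal under 6.64 were left out, keeping 16227 probes and 13142 features, 1 probe each. Groups were compared with limma 3.58.1 in R 4.3.3 (lmFit, eBayes, two-sided, no covariates), with Benjamini-Hochberg adjustment over all features. The procedure was tested on simulated data. No 2 arrays were identical, and the number of arrays limits the precision. Chains given tumour by tumour are the 12 tested ones with the largest absolute difference and 12 preset chains of types I, III, IV, V, VI, XV and XVIII. Of the synthesis and receptor lists, the 4 members with the smallest p are named. Members and lists were chosen with earlier results of these data known. Alternatives covered normalization, a normexp background with an offset of 16, the filter, the variance model, array weights, the probe, the replicate number and left-out tumours.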

Additional observations from a re-analysis of the deposited data

Results flagged for a closer look

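Among 54 groups of 4 values checked, 1 held a tumour far from the others, where chance gives about 5%. Sec23a had a log2 signal of 6.43 in control 1, against 6.66 to 6.67 in the other 3 control tumours.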

How the results depend on the processing

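Counts of collagen genes past the threshold were 0 in each direction in 17 of 18 alternatives, and 5 higher without imiquimod 1. Over tumours left out singly, collagen genes ranged from 0 to 5 higher, synthesis genes from 0 to 3 higher, and receptor genes from 0 to 1 higher and from 0 to 1 lower. All features ranged from 145 to 454 higher and from 123 to 457 lower (280 and 289 with all tumours), and numbered 71 higher and 41 lower without imiquimod 3 and 4. Without those 2 tumours the log2 differences turned to -0.31 (Col4a2), -0.52 (Col4a1), -0.26 (Col18a1), -0.27 (Col15a1), -0.13 (Col8a1) and 0.043 (Col9a1), and the cause was not tested. With single tumours left out, Col4a1 ranged from -0.19 to 0.35, Col15a1 from -0.14 to 0.16, Col4a2 from 0.13 to 0.69 and Col18a1 from 0.06 to 0.49. With normexp, Col3a1 had 1.11 (adjusted p = 0.0532), Col6a2 0.86 and Sec23a 0.52. As the mean of kept probes, Col6a1 had 0.74 and Col6a3 0.23. Class means ranged from 0.19 to 0.45 for fibrillar, from -0.06 to 0.20 for basement membrane and from 0.03 to 0.13 for other chains. With the replicate number as a block, 0 collagen genes passed, all features numbered 249 higher and 252 lower, and the Dcn and Krt14 calls were lost (adjusted p = 0.0712 and 0.0556). Same-numbered tumours did not deviate together over all features (r from -0.021 to 0.035). This check looks for a deviation shared by many features and cannot exclude that the numbers mark a pairing. Signals near the filter limit of 6.64 and 4 tumours a group limit what could be detected.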
